A study of Mus musculus with 12 samples.

Results

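Transcripts of 9 genes for subunits of phosphoinositide 3-kinase (PI3K) and for lipid phosphatases were measured in 6 primary mouse T-ALLs (acute lymphoblastic leukemias of the T lineage, which arise from T-cell precursors) after dexamethasone (DEX, a synthetic glucocorticoid) or vehicle (VEH). The genes were Pik3r1, Pik3r2, Pik3r5, Pik3ca, Pik3cb, Pik3cd, Pik3cg, Inpp5d and Inpp4b, chosen by name from the 38339 genes of the deposited table, and each matched 1 row. The leukemias, on a C57BL/6 x 129Sv/Jae F1 background, had been transplanted into recipient mice. Moribund recipients received DEX (6 libraries) or VEH (6 libraries), and total RNA of bone marrow cells was taken 4 hours later after red cell lysis. The labels give no genotype or driver lesion for the leukemias, no dose, and no age or conditioning for the recipients. Each leukemia gave 1 DEX and 1 VEH library, whose titles end in different mouse or sample codes, and the labels do not say whether mice were pooled. Leukemia 1 carries the code 73A-46B, leukemia 2 is 73M-19A, leukemia 3 is 78A-143B, leukemia 4 is 2M-127B, leukemia 5 is 20M-116B and leukemia 6 is JW-81-59B.

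Class I PI3K adds a phosphate to a membrane lipid, which makes PIP3, the lipid that recruits kinases such as AKT to the membrane. Class IA enzymes pair a catalytic subunit (from Pik3ca, Pik3cb or Pik3cd) with a regulatory subunit (from Pik3r1 or Pik3r2) that stabilises it, holds it inactive at rest and brings it to phosphorylated receptors. The class IB catalytic subunit from Pik3cg instead binds the adaptor from Pik3r5 and answers G protein-coupled receptors. Inpp5d encodes SHIP1, a phosphatase of blood cells that removes a phosphate from PIP3, and Inpp4b encodes the enzyme that acts on the product of SHIP1. In T cells and their precursors the pathway carries signals of antigen receptors, cytokine receptors and chemokine receptors.

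The windows around the annotated starts of Pik3r1 and Pik3r5 are shown because these genes had the largest increases with DEX of the 9. They run from 250 bases before to 50 bases from the start, 5′ to 3′ on the gene's strand (RefSeq, GRCm38.p6), and capitals mark CG dinucleotides. Pik3r1 has a distal start and a second start 75587 bases further along the gene, and the deposited unit, FPKM (fragments per kilobase per 1e6 mapped fragments), is given per gene, so transcripts from the 2 starts are not separated.
Pik3r1 distal start, chr13:101768168-101768467, minus strand: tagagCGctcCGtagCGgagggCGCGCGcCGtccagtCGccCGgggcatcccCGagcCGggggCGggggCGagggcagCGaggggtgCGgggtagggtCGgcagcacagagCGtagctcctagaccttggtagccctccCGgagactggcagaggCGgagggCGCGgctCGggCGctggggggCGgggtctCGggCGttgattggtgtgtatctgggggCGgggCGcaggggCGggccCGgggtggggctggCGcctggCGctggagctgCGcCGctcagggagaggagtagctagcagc
Pik3r1 second start, chr13:101692581-101692880, minus strand: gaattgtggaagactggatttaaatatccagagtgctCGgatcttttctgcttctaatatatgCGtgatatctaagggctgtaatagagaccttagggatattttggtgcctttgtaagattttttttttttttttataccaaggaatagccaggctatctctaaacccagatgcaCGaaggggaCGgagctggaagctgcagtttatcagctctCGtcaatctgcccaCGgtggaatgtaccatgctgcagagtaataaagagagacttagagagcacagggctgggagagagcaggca
Pik3r5 start, chr11:68431875-68432174, plus strand: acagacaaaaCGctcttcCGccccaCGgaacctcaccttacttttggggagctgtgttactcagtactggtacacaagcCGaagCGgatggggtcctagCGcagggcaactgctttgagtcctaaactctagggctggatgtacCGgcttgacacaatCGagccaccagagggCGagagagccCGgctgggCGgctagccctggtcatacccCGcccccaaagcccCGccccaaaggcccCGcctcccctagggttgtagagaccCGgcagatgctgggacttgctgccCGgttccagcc

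The distal window of Pik3r1 held 34 CG dinucleotides at 75.7% GC, its second window 6 at 43.7% GC, and the Pik3r5 window 16 at 62.0% GC. The median of all 32851 windows in the table was 7 CG dinucleotides and 52.7% GC. None of these 3 windows held AGAACA, the half-site bound by the glucocorticoid receptor, or GTAAACA, a forkhead motif, on either strand. Over all 13 windows of the 9 genes, 1 held AGAACA (a start of Pik3cd) and 1 held GTAAACA (a start of Pik3cg), while 19% and 3.65% of all windows held them. The palindromic element, AGAACA and TGTTCT with any 3 bases between, was in 0 of the 13 windows and in 0.0091% of all windows. The letters were searched in these windows alone, and other regions of the genes were not searched.

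The libraries summed to between 1466471 and 2019058 FPKM. The file gives no counts, and the smallest steps seen in sparse genes, with fragments of 150 bases assumed, put the depth at 11.7 M to 35.5 M fragments in 11 libraries and, less certainly, at 100.4 M in the VEH library of leukemia 2. Of 14 T-lineage genes, 13 were tested, 1 was higher and 4 were lower with DEX, where 4.27% of all tested genes were higher and 9.28% lower. The levels of the list varied, with Cd3e at 64.5 to 114 FPKM in DEX and 72.1 to 102 FPKM in VEH, and Lck at 287 to 439 FPKM in DEX and 350 to 559 FPKM in VEH, while Cd8a ranged from 0.30 to 220.5 FPKM in DEX and from 0.50 to 195 FPKM in VEH, and Cd7 from 0.22 to 12.8 FPKM in DEX and from 0.41 to 10.7 FPKM in VEH. The bulk RNA also held other marrow cells: 13 granulocyte genes summed to 1530 to 5482 FPKM in DEX and 2315 to 9081 FPKM in VEH, and 8 monocyte and macrophage genes to 42.8 to 294 FPKM in DEX and 84.4 to 529 FPKM in VEH. The 8 B-lineage genes summed to at most 8.4 FPKM in DEX and to at most 16.2 FPKM in VEH apart from leukemia 2, whose VEH library held 51.6 FPKM. The 8 erythroid genes summed to 150 FPKM in the DEX library of leukemia 2 and to 1173 FPKM, the highest of the 12, in its VEH partner, and no gene of these lists was at 0 in all libraries. Genes annotated as small noncoding, ribosomal or mitochondrial RNA held 67.0 ± 3.39% of the summed FPKM in DEX and 64.4 ± 1.53% in VEH (SD, n = 6 each), and a rescaling to TPM divides by that sum. Exposure to the drug was visible in all 6 leukemias. Fkbp5, a co-chaperone gene induced by the glucocorticoid receptor, was higher with DEX by 0.61 to 1.54 on the log2(FPKM + 1) scale.

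Of the 9 genes, 8 were tested, because they stood at 1 FPKM or more in 6 or more of the 12 libraries. With DEX, Pik3r1, Pik3r5 and Inpp5d rose, Pik3cd fell, and Pik3r2, Pik3ca, Pik3cg and Inpp4b did not pass the test. The test was limma with leukemia as a block, over 12358 genes, at a Benjamini-Hochberg adjusted p under 0.05. Thus 3 of 8 were higher, where 4.27% of all tested genes were, and 1 of 8 was lower, where 9.28% were (13.6% in either direction). Over all genes, 528 were higher and 1147 lower, against 639 and 790 with median-of-ratios scaling and 268 and 1844 after rescaling to TPM. The genes were picked with earlier results of these data known, so these shares describe the picked genes alone. In bulk RNA, fewer cells of a type and less RNA per cell cannot be told apart.

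**Figure D1:**
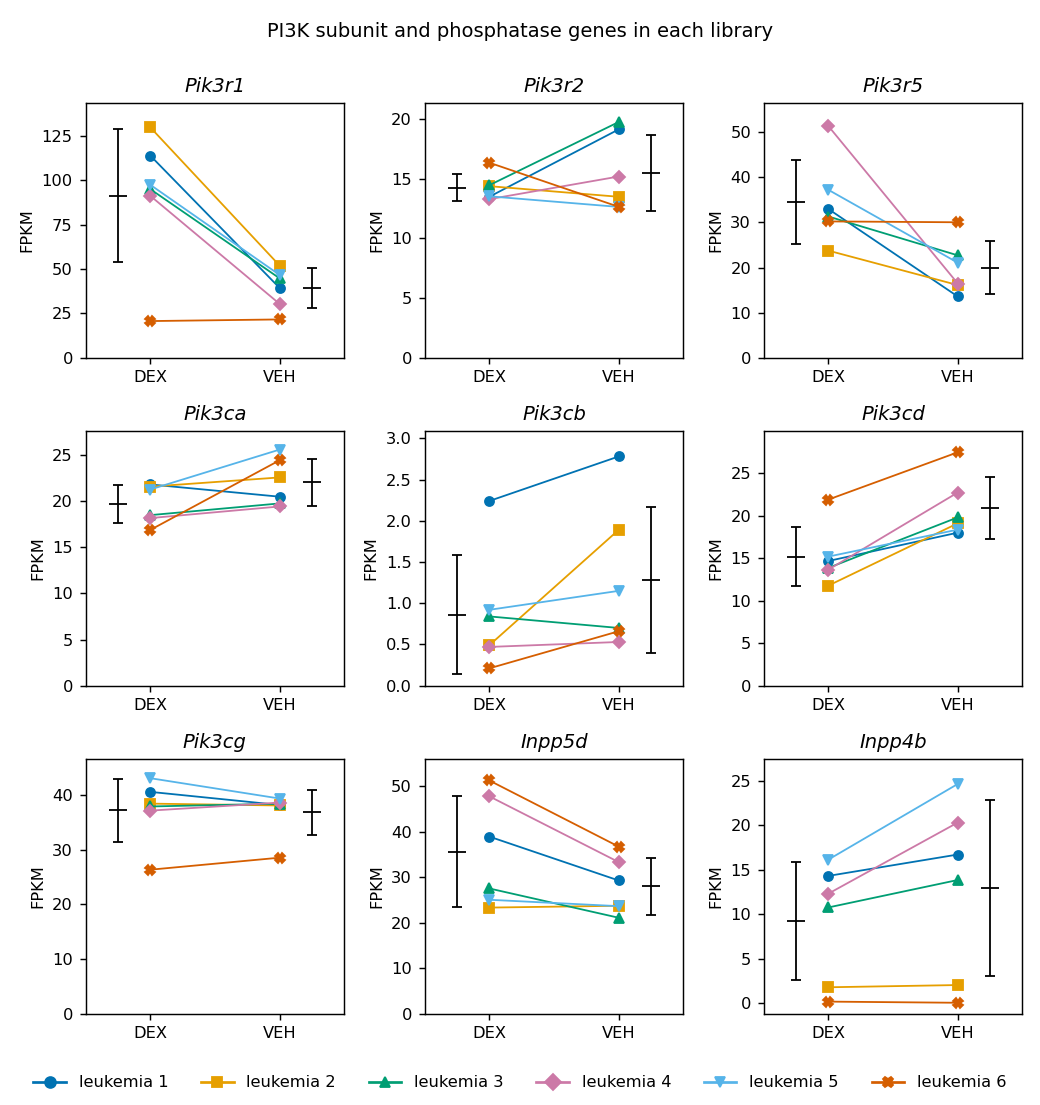
FPKM of each of the 9 genes (vertical axis, from 0) in DEX (left) and VEH (right) libraries, with a line joining the libraries of a leukemia and black bars for the mean and SD of 6 libraries. Pik3r1 stood between 91.4 and 130.1 FPKM in 5 DEX libraries and at 20.6 FPKM in that of leukemia 6, against 21.6 to 52.0 FPKM in VEH.

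Pik3r1 encodes the main class IA regulatory subunit (ENSMUSG00000041417, GRCm38 chromosome 13, 101680563 to 101768217, minus strand). It stood at 114, 130.1, 95.2, 91.4, 97.6 and 20.6 FPKM in the DEX libraries of leukemias 1 to 6, against 39.3, 52.0, 44.8, 30.3, 46.7 and 21.6 FPKM in the VEH libraries. Every DEX library of leukemias 1 to 5 was above every VEH library, while in leukemia 6 the DEX library was slightly below its VEH partner. The FPKM of DEX over VEH was 2.09 to 3.01 in leukemias 1 to 5 and 0.957 in leukemia 6. Over all 6 leukemias Pik3r1 averaged 91.5 ± 37.6 FPKM in DEX and 39.1 ± 11.3 FPKM in VEH (SD, n = 6 each). The log2 difference was 1.07 ± 0.19 (SE; 95% interval 0.65 to 1.5; limma adjusted p = 0.00874), higher in 5 of 6 leukemias. In the 6 fits that left out a leukemia it was 0.98 to 1.3 (limma adjusted p = 0.000597 to 0.0342). The largest of these, 1.3 (limma adjusted p = 0.000597), was the fit without leukemia 6.

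Other genes that respond to the drug were higher in the DEX library of leukemia 6 than in its VEH partner. Its Fkbp5 stood at 502 FPKM in DEX and 330 FPKM in VEH, the smallest log2 difference of the 6 leukemias at 0.61. Its Tsc22d3 (the gene of the leucine zipper protein GILZ) stood at 220.5 FPKM in DEX and 52.6 FPKM in VEH, the largest of the 6 at 2.05. Nr3c1, the receptor gene, stood at 62.2 FPKM in DEX and 35.6 FPKM in VEH there, the lowest level of the 6 in either arm. Its log2 difference of 0.79 lay inside the range of 0.32 to 0.87 over the leukemias.

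Pik3r2 encodes the other widely expressed class IA regulatory subunit of the 9 (ENSMUSG00000031834, chromosome 8, 70768176 to 70776713). Its level was 13.3, 14.0 and 16.4 FPKM (lowest, median and highest) in DEX and 12.6, 14.3 and 19.8 FPKM in VEH, so the groups overlapped throughout. The log2 difference was -0.09 ± 0.11 (SE; 95% interval -0.35 to 0.17; limma adjusted p = 0.619), with 3 leukemias higher and 3 lower. In the leukemias where the DEX library was higher (2, 5 and 6), the difference was 0.09 to 0.35. These are also the leukemias whose DEX sample description carries no S number, unlike their VEH partners, and what that S number stands for is not given in the sources used here. In these 3 leukemias alone the limma differences were 0.76 for Pik3r1 (adjusted p = 0.106), 0.45 for Pik3r5 (adjusted p = 0.143), -0.41 for Pik3cd (adjusted p = 0.116) and 0.18 for Inpp5d (adjusted p = 0.433). In leukemias 1, 3 and 4 alone they were 1.38 for Pik3r1 (adjusted p = 0.00622), 1.08 for Pik3r5 (adjusted p = 0.0312), -0.49 for Pik3cd (adjusted p = 0.0464) and 0.42 for Inpp5d (adjusted p = 0.0301), also by limma. Leukemias 2, 5 and 6 were not alike: the Pik3r1 difference was 1.31, 1.05 and -0.06 in turn, against 1.07 in leukemia 3. For Pik3r5 the 3 values were 0.53, 0.79 and 0.0088, and for Inpp5d -0.02, 0.08 and 0.47. With only 3 leukemias in each set, passing the threshold in 1 set and missing it in the other is not a test of a difference between the sets. A link to the S number was not tested.

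Pik3r5 encodes the larger adaptor of the class IB enzyme (ENSMUSG00000020901, chromosome 11, 68432121 to 68497849, plus strand). It stood at 33.0, 23.8, 31.3, 51.4, 37.2 and 30.2 FPKM in the DEX libraries of leukemias 1 to 6, against 13.6, 16.1, 22.7, 16.4, 21.1 and 30.0 FPKM in the VEH libraries. As with Pik3r1, DEX and VEH did not overlap in leukemias 1 to 5. In leukemia 6 the libraries were level, here at the high VEH value. The log2 difference was 0.77 ± 0.18 (SE; 95% interval 0.36 to 1.17; limma adjusted p = 0.0264), positive in 6 of 6 leukemias but by only 0.0088 in leukemia 6. The largest difference was 1.59, in leukemia 4. The call ended without leukemia 1 (0.67, adjusted p = 0.0814), leukemia 4 (0.60, adjusted p = 0.055) or leukemia 5 (0.76, adjusted p = 0.0757) and when values were rescaled to TPM (0.62, adjusted p = 0.063), all in limma.

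With leukemia 6 set aside, a choice made after its values were seen, the DEX and VEH ranges of 3 tested genes were apart: Pik3r1, Pik3r5 and Pik3cd. Over all tested genes, 4.16% had ranges apart in these 5 leukemias. Over all 6 leukemias the ranges were apart for 0 of the 8 genes and for 1.73% of all tested genes.

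**Figure D2:**
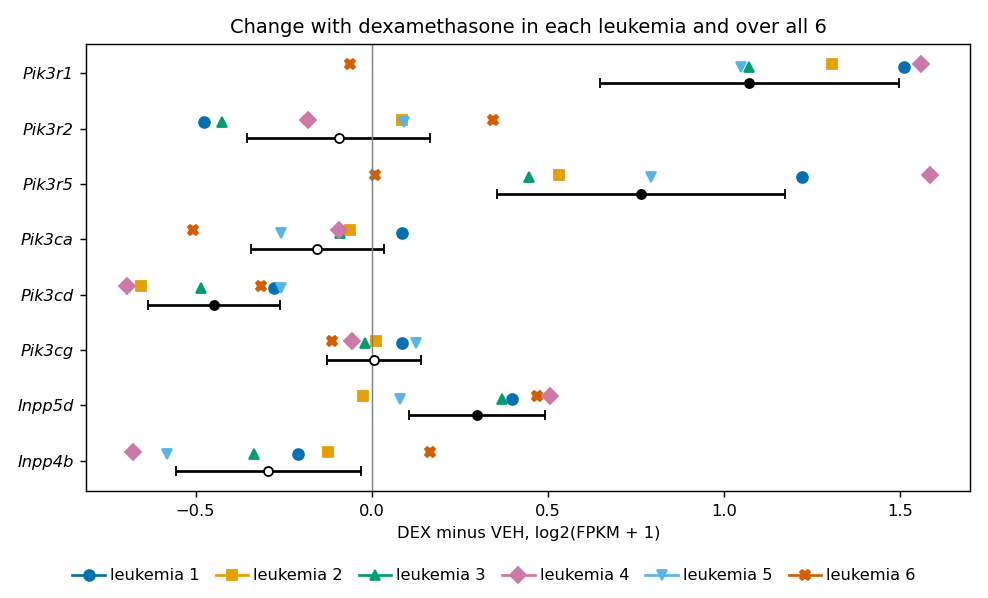
DEX minus VEH in log2(FPKM + 1) (horizontal axis) for each tested gene, with coloured marks for the 6 leukemias and below them the limma estimate with its 95% interval, filled where the adjusted p was under 0.05. Leukemia 6 sat at -0.06 for Pik3r1, with the next leukemia at 1.05, and was the lowest for Pik3r5 at 0.01, with the next at 0.45. It lay among the others for Pik3cd and Inpp5d.

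Pik3cd encodes the catalytic subunit that leukocytes express most selectively among the class IA enzymes (ENSMUSG00000039936, chromosome 4, 149649168 to 149702571, minus strand). It stood at 11.8, 14.3 and 21.9 FPKM (lowest, median and highest) in DEX and 18.0, 19.5 and 27.5 FPKM in VEH. It was lower with DEX in 6 of 6 leukemias, at 0.601 to 0.827 of the VEH level. The groups overlapped only because leukemia 6 was the highest in both arms, at 21.9 FPKM in DEX and 27.5 FPKM in VEH. The log2 difference was -0.45 ± 0.08 (SE; 95% interval -0.63 to -0.26; limma adjusted p = 0.0108). The call was kept in all 6 fits that left out a leukemia, with values from -0.49 to -0.40 (limma adjusted p = 0.0144 to 0.0371).

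Pik3ca, the catalytic subunit gene expressed in most tissues, stood at 16.9, 19.9 and 21.8 FPKM in DEX and 19.4, 21.5 and 25.6 FPKM in VEH (lowest, median and highest). It was lower in 5 of 6 leukemias, most in leukemia 6 (-0.51), and did not pass the test (-0.15 ± 0.08, SE; 95% interval -0.34 to 0.04; limma adjusted p = 0.254). Without leukemia 6 the difference was -0.083 (limma adjusted p = 0.496), and in leukemias 1, 3 and 4 alone it was -0.032 (limma adjusted p = 0.863). Pik3cg, the class IB catalytic subunit gene, had the smallest estimated difference of the 8: 26.3, 38.1 and 43.0 FPKM in DEX and 28.5, 38.3 and 39.3 FPKM in VEH. Its log2 difference was 0.01 ± 0.06 (SE; limma adjusted p = 0.951) and a 95% interval of -0.13 to 0.14. All 10 libraries of leukemias 1 to 5 lay between 37.1 and 43.0 FPKM.

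Pik3cb, a broadly expressed class IA catalytic subunit gene, had the lowest mean of the 9 in each arm, at 0.21, 0.665 and 2.24 FPKM in DEX and 0.53, 0.925 and 2.78 FPKM in VEH (lowest, median and highest). It reached 1 FPKM in 4 of 12 libraries and was not tested. With no filter its difference was -0.29 ± 0.15 (SE; limma adjusted p = 0.384 over 27663 genes), lower in 5 of 6 leukemias. The widest gap was in leukemia 2, with 0.49 FPKM in DEX and 1.89 FPKM in VEH. The VEH library of that leukemia was also the one with the highest erythroid and B-lineage sums, and their part in this value was not tested.

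The ratio of class IA regulatory to catalytic transcripts was higher with DEX in each leukemia, and in leukemia 6 it was below 1 in both arms. On the per-length FPKM scale, Pik3r1 plus Pik3r2 over Pik3ca plus Pik3cb plus Pik3cd was 3.0 ± 1.1 in DEX and 1.26 ± 0.35 in VEH (SD, n = 6 each), higher with DEX in 6 of 6 leukemias. It was 2.97 to 4.26 in the DEX libraries of leukemias 1 to 5 and 0.948 in that of leukemia 6, against 1.07 to 1.60 in VEH for leukemias 1 to 5 and 0.650 in VEH for leukemia 6. In leukemia 6 the regulatory sum was 36.99 FPKM in DEX and 34.22 FPKM in VEH, with Pik3r1 slightly lower and Pik3r2 higher (16.35 against 12.65 FPKM). Its Pik3ca (16.89 against 24.45 FPKM) and Pik3cd (21.93 against 27.50 FPKM) were lower with DEX. Pik3r1 made up 82.9 ± 13.3% of the regulatory pair in DEX and 70.7 ± 6.76% in VEH. In leukemia 6 that share was 55.8% in DEX and 63.0% in VEH, the lowest of the 6 in each arm. Pik3r3, a further class IA regulatory gene outside the 9, averaged 8.43 ± 1.90 FPKM in DEX and 8.41 ± 2.55 FPKM in VEH (SD, n = 6 each) and is not in these sums. These are ratios of transcripts, not of proteins, and are given without a test because the genes were chosen with results known.

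For class IB, Pik3r5 over Pik3cg was 0.943 ± 0.275 in DEX and 0.564 ± 0.254 in VEH (SD, n = 6 each), higher with DEX in 6 of 6 leukemias. In leukemia 6 the ratio was 1.15 in DEX and 1.05 in VEH, the highest VEH value. Of the summed FPKM of the 4 catalytic genes, Pik3cg held 50.8 ± 5.23% in DEX and 45.4 ± 5.10% in VEH (SD, n = 6 each). Pik3cd held 21.1 ± 6.23% in DEX and 25.8 ± 4.52% in VEH, and Pik3ca 27.0 ± 1.54% in DEX and 27.2 ± 2.67% in VEH. Pik3cb held 1.14 ± 0.887% in DEX and 1.59 ± 1.11% in VEH. The share of Pik3cg was higher with DEX in 6 of 6 leukemias and that of Pik3cd lower in 6 of 6, though nearly level in leukemia 6 (33.6% in DEX and 33.9% in VEH). These are shares of 1 sum, so the rise for Pik3cg is not separate from the lower FPKM of the other catalytic genes. The FPKM of Pik3cg itself was higher in 3 leukemias and lower in 3. The sum of the 4 catalytic genes was 73.0 ± 5.84 FPKM in DEX and 81.1 ± 2.01 FPKM in VEH, lower in 6 of 6. In leukemia 1 the sums were nearly level, at 79.31 FPKM in DEX and 79.46 FPKM in VEH.

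**Figure D3:**
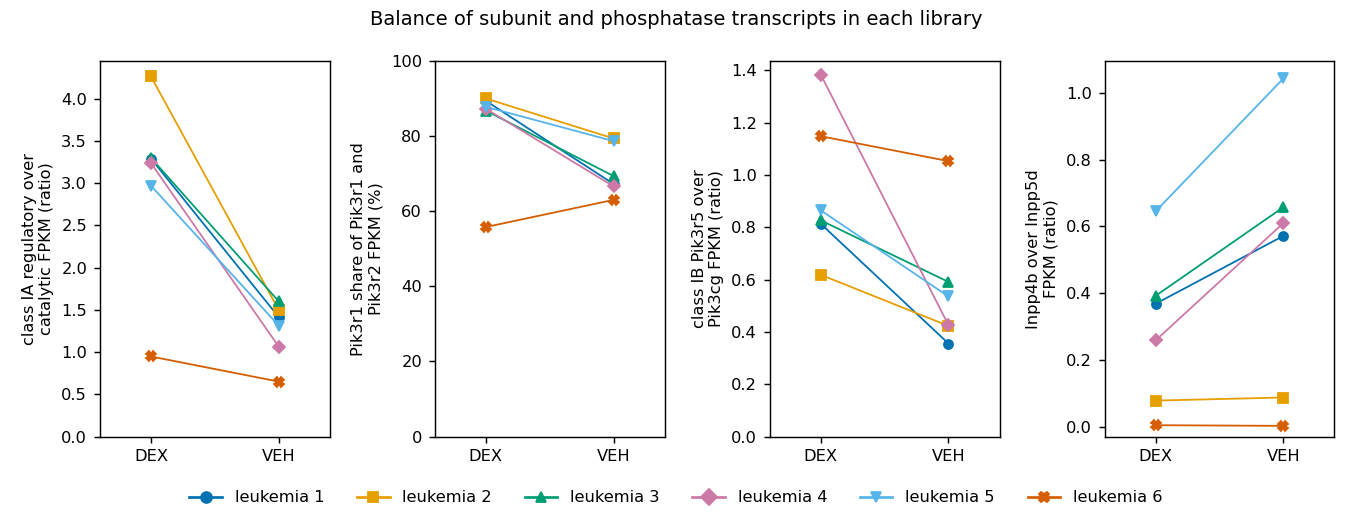
Ratios or shares of FPKM (vertical axes) in DEX (left) and VEH (right) libraries, with a line for each leukemia. The class IA ratio was 2.97 to 4.26 in DEX and 1.07 to 1.60 in VEH for leukemias 1 to 5, and 0.948 in DEX and 0.650 in VEH for leukemia 6.

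Inpp5d, which encodes SHIP1 (ENSMUSG00000026288, chromosome 1, 87620312 to 87720507, plus strand), stood at 38.9, 23.3, 27.5, 47.7, 25.0 and 51.2 FPKM in the DEX libraries of leukemias 1 to 6, against 29.2, 23.7, 21.1, 33.3, 23.6 and 36.7 FPKM in the VEH libraries. The groups overlapped, and leukemias 1, 4 and 6 were the highest 3 in both arms. The log2 difference was 0.37 to 0.51 in leukemias 1, 3, 4 and 6, -0.02 in leukemia 2 and 0.08 in leukemia 5. The overall difference was 0.30 ± 0.09 (SE; 95% interval 0.11 to 0.49; limma adjusted p = 0.0492), just under the threshold. Leaving out any of leukemias 1, 3, 4, 5 or 6 ended the call (0.26 to 0.34, limma adjusted p = 0.0728 to 0.134), and rescaling to TPM gave 0.16 (limma adjusted p = 0.337).

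Inpp4b (ENSMUSG00000037940, chromosome 8, 81342556 to 82127914, plus strand) acts on the lipid that SHIP1 makes. It stood at 14.3, 1.81, 10.8, 12.3, 16.1 and 0.20 FPKM in the DEX libraries of leukemias 1 to 6, against 16.7, 2.06, 13.8, 20.3, 24.6 and 0.07 FPKM in the VEH libraries. Leukemias 2 and 6 were low or near 0 in both arms. The log2 difference was -0.29 ± 0.12 (SE; 95% interval -0.56 to -0.03; limma adjusted p = 0.128), lower in 5 of 6 leukemias. It passed in the fit without leukemia 6 (-0.39, limma adjusted p = 0.044), where the gene is near 0. The FPKM of Inpp4b over that of Inpp5d was 0.291 ± 0.233 in DEX and 0.495 ± 0.389 in VEH (SD, n = 6 each), lower with DEX in leukemias 1 to 5.

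Granulocytes and monocytes also use Pik3cd, Pik3cg, Pik3r5 and Inpp5d. The granulocyte list averaged 2792 ± 1467 FPKM in DEX and 4287 ± 2511 FPKM in VEH (SD, n = 6 each), with 0 of 13 genes higher and 1 lower by the test. Over all tested genes 4.27% were higher and 9.28% lower, so the lower count of the list is near that of all genes. The mean log2 difference of the list was below 0 in leukemias 1, 2, 5 and 6 (-1.35 to -0.29) and above 0 in leukemias 3 and 4 (0.62 and 0.15). With the mean of this list as a further term in the limma fit, Pik3r1 stood at 1.18 (adjusted p = 0.0209), Pik3r5 at 0.88 (adjusted p = 0.0422) and Pik3cd at -0.46 (adjusted p = 0.0295). Inpp5d stood at 0.35 in that fit, above the threshold of 0.05 (limma adjusted p = 0.0613).

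The leukemias differed from each other in 5 of the 8 tested genes, by limma's F test for the 5 leukemia terms, where 51.1% of all tested genes passed. The count for the 8 is thus near that of all genes. Inpp4b varied most (F = 146, adjusted p = 3.6e-06, rank 86 of 12358 genes by F), followed by Inpp5d (F = 13.6, adjusted p = 0.00344), Pik3r1 (F = 8.88, adjusted p = 0.0103), Pik3cg (F = 8.09, adjusted p = 0.013) and Pik3cd (F = 5.45, adjusted p = 0.0321). For Pik3r1, Pik3cg and Pik3cd this rested on leukemia 6: without it F was 4.57 (adjusted p = 0.0721), 0.492 (adjusted p = 0.763) and 0.616 (adjusted p = 0.691). Pik3r2 (adjusted p = 0.578), Pik3r5 (adjusted p = 0.403) and Pik3ca (adjusted p = 0.403) did not pass the F test. Leukemia 6 had the lowest Pik3r1, Pik3cg and Inpp4b and the highest Pik3cd and Inpp5d of the 6 in both arms. Its granulocyte sum was 1530 FPKM in DEX, the lowest of the DEX libraries, and 3825 FPKM in VEH, within the range of the others, and the part of other cells in these levels was not tested.

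**Figure D4:**
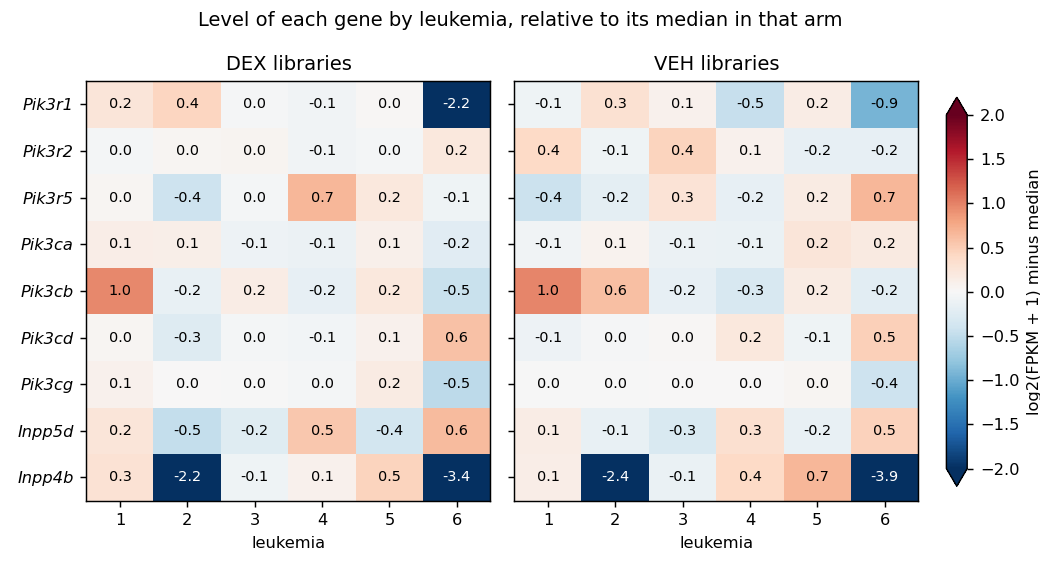
Level of each gene in each leukemia (columns) as log2(FPKM + 1) minus the median of the 6 libraries of that arm, for DEX (left) and VEH (right). Colours saturate at 2, and the printed values show leukemia 6 low for Pik3r1, Pik3cg and Inpp4b and high for Pik3cd and Inpp5d in both arms, and leukemia 2 low for Inpp4b.

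In DEX the order of mean FPKM was Pik3r1, Pik3cg, Inpp5d, Pik3r5, Pik3ca, Pik3cd, Pik3r2, Inpp4b and Pik3cb, and in VEH it was Pik3r1, Pik3cg, Inpp5d, Pik3ca, Pik3cd, Pik3r5, Pik3r2, Inpp4b and Pik3cb. Neighbours were set apart only where their mean gap exceeded the SD of the gap within libraries. In DEX this held for Pik3r1 over Pik3cg (54.3 FPKM, 5 of 6 libraries), Pik3r5 over Pik3ca (14.8 FPKM, 6 of 6) and Inpp4b over Pik3cb (8.4 FPKM, 5 of 6). In VEH it held for Inpp4b over Pik3cb alone (11.7 FPKM, 5 of 6). In VEH, Pik3r1 exceeded Pik3cg by 2.27 FPKM with an SD of 8.66 FPKM, so the top places were not separated there.

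Counts in further lists of the pathway stand beside 4.27% of all tested genes higher and 9.28% lower. Among 9 further genes for PI3K proteins and their interactors, 7 were tested, 1 rose, 1 fell and 5 did not pass. Their median difference was 0.03 against -0.05 over all tested genes. The 1 that rose was the interactor gene Pik3ip1. The 1 lower call was lost without leukemia 1 or 4. Pik3ip1, a membrane protein that inhibits PI3K, stood at 83.8 ± 18.8 FPKM in DEX and 47.4 ± 8.17 FPKM in VEH (SD, n = 6 each; 0.79 ± 0.09, SE; limma adjusted p = 0.00202). Pik3c2b, a class II PI3K, was lower, at 2.41 FPKM in DEX and 3.97 FPKM in VEH (-0.54, limma adjusted p = 0.0149). Of 22 other phosphoinositide phosphatase genes, 20 were tested, 4 rose, where 4.27% of all tested genes did, 2 fell, where 9.28% did, and 14 did not pass (median 0.05). The 4 higher became 1 without leukemia 1 or 5 and 2 without leukemia 2, and the 2 lower became 0 without leukemia 1 or 5 and 1 without leukemia 2, 4 or 6. Mtmr9, a catalytically inactive myotubularin, rose by 0.54 and the 5-phosphatase gene Inpp5k by 0.32, while the 5-phosphatase gene Inpp5b fell by 0.48. Of 11 lipid kinase genes outside PI3K, 10 were tested, 2 rose, where 4.27% of all tested genes did, and 0 fell (median -0.02). These were Pip4k2b and Pip4k2a, for kinases that make the lipid PI3K uses as its substrate from a minor precursor, at 0.46 and 0.48 (limma adjusted p = 0.0126 for each). Of these 2 calls, 0 were left after rescaling to TPM or with no filter and 1 without leukemia 5.

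Of 22 receptors and adaptors that recruit PI3K, 18 were tested, 1 rose, where 4.27% of all tested genes did, 4 fell, where 9.28% did, and 13 did not pass (median -0.02). The higher count was 0 without leukemia 1, 2 or 5 and 2 without leukemia 3, and the lower count was 2 without leukemia 5. The transmembrane adaptor gene Trat1 (-0.42), the ubiquitin ligase gene Cbl (-0.60) and Il2rg (-0.40), the shared chain of several cytokine receptors, were among the falls. Of 12 RAS and G protein subunit genes that activate PI3K, 10 were tested, 0 rose and 2 fell (median -0.14), among them Hras (-0.36), where 9.28% of all tested genes fell. The lower count was 1 without leukemia 2 or 4 and 0 without leukemia 5. Of 25 genes for PIP3-binding effectors, 24 were tested, 2 rose, 2 fell and 20 did not pass (median -0.09), where 4.27% of all tested genes rose and 9.28% fell, so the lower count is near that of all genes. The higher count was 1 without leukemia 1, 2, 3, 4 or 6, and the lower count was 1 without leukemia 1, 2 or 4 and 0 without leukemia 5. Cyth1, an exchange factor for ARF proteins, rose by 0.46, and the TEC family kinase gene Txk (-0.37) and the exchange factor gene Vav2 (-0.31) fell. Of 11 partners of SHIP1, 11 were tested, 0 rose and 2 fell, where 9.28% of all tested genes did (median -0.09), namely the adaptor genes Sh2d1a (-0.35) and Stap1 (-0.32). The lower count was 1 without leukemia 1, 2, 4, 5 or 6, and the higher count was 1 without leukemia 3. The 7 list medians ran from -0.14 to 0.05.

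**Figure D5:**
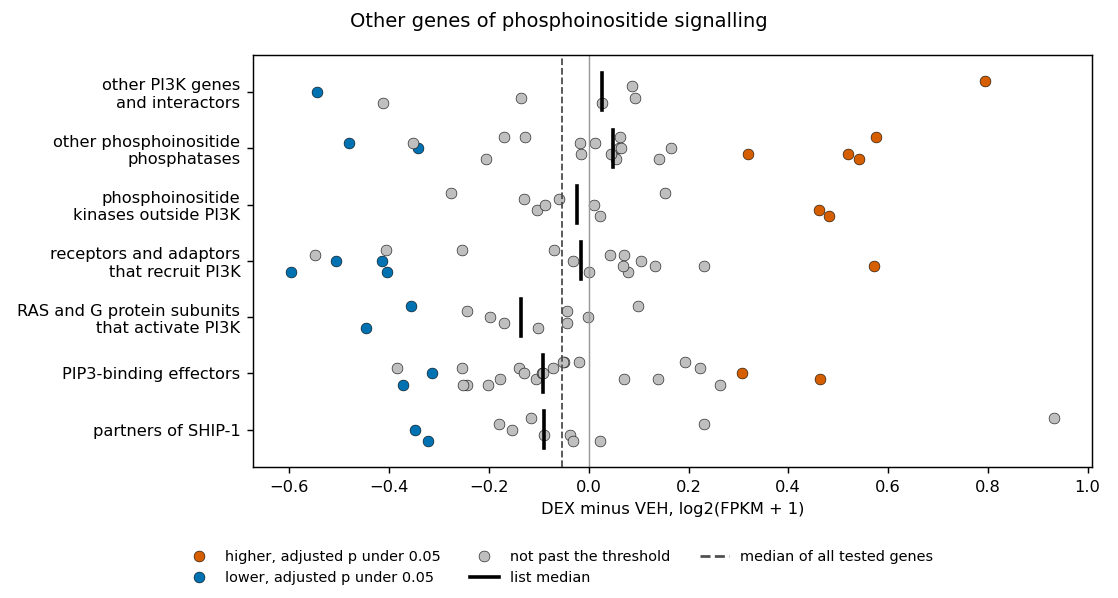
DEX minus VEH in log2(FPKM + 1) (horizontal axis) for the tested genes of 7 lists, coloured where the limma adjusted p was under 0.05. Black bars are list medians, from -0.14 to 0.05, and the dashed line is the median of all tested genes at -0.05.

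Genes with a pattern most like each tested gene were taken as the 3 with the highest Pearson r over the 12 libraries in log2(FPKM + 1), among 10253 genes with a mean of at least 3 FPKM. These r values share leukemias and treatment within pairs and are descriptions. For Pik3r1 they were Tada2b (r = 0.958), Ttc12 (r = 0.955) and Ryr3 (r = 0.953), of which Ryr3 averaged 8.02 FPKM in DEX and 0.745 FPKM in VEH. Ryr3 met the limit of 3 FPKM, a mean over all 12 libraries, only through its DEX libraries. For Pik3r5 they included Dnajc18 (r = 0.951) and Ubash3a (r = 0.875). For Pik3cd they were Sft2d1, 1190002N15Rik and Zfp710 (r = 0.924 to 0.950), and all of these were lower with DEX. Since r was taken over both arms, genes picked to match Pik3cd largely share its fall by the way they were picked. In the same way, genes picked to match Pik3r1 or Pik3r5 largely share the direction of their rise. For Inpp5d they were Pitpna, Gpr25 and Ndrg1 (r = 0.888 to 0.935), and for Inpp4b Terc, Hecw2 and D130040H23Rik (r = 0.939 to 0.968). For Pik3cg they were Gm26574, 2310075C17Rik and Pbxip1 (r of at least 0.968). Pik3r2 (Palm, Slc6a6 and Foxred1, r = 0.823 to 0.855) and Pik3ca (Pnpla8, Zzz3 and Tmem170b, r = 0.887 to 0.917) had weaker matches at their top than Pik3cg.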

How the data were processed

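The authors deposited FPKM on a linear scale with 2 decimals for 12 libraries. Per the labels' protocols, the total RNA library kit keeps strand, and fragments were read in pairs of 100 bp. Per the submitters' processing notes, the build was mm10 and the tools included Bowtie2 (version 2), RSEM and edgeR, with no roles given. The annotation version and filters are not given in the sources used here. Values were analysed as log2(FPKM + 1) without further scaling, which understates changes of genes near 0. The 12358 genes at 1 FPKM or more in 6 or more libraries were tested in limma 3.58.1 (R 4.3.3; eBayes trend; residual df 5, prior df 3.995), with leukemia as a block, two-sided, with Benjamini-Hochberg adjustment over all tested genes. The pairs come from the leukemia code in the labels: both libraries of a pair hold the same transplanted leukemia. Each leukemia is a replicate, and the spread between recipients of 1 leukemia in the same arm was not measured. The fit was tested on simulated data. Gene positions are from GENCODE M21 (GRCm38), in which 37607 of the 38339 identifiers were found. Promoter windows of all 9 genes were matched by symbol. The text names the 9 genes, up to 3 called genes of each list by smallest p, Fkbp5, Tsc22d3, Nr3c1, 4 T-cell markers, Pik3r3 (added after its values were seen) and the 3 closest genes by r; a few genes that this rule names are not reported here. The genes, lists and tests were chosen with earlier results of these data known. The 19 alternatives covered pseudocount, filter, scaling, block, variance model, subsets of leukemias and a granulocyte term.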

Additional observations from a re-analysis of the deposited data

Results flagged for a closer look

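The values were taken as 27 sets of 6 (each gene in DEX, in VEH and as a difference). A set was flagged where the gap of a value to its nearest neighbour passed Dixon's 95% limit for 6 values. A single set passes this limit by chance about 1 time in 20. The sets are not independent: each difference comes from the DEX and VEH values of its gene, and all genes share the 6 leukemias. The number of flags therefore cannot be set against that rate. In all, 6 sets were flagged. Leukemia 6 gave 5 of the 6. Pik3r1 stood at 20.6 FPKM in its DEX library, with the next at 91.4 FPKM, and its log2 difference there was -0.061, with the next at 1.05. Pik3cd stood at 21.9 FPKM in its DEX library, with the next at 15.2 FPKM. Pik3cg stood at 26.3 FPKM in its DEX library, with the next at 37.1 FPKM, and at 28.5 FPKM in its VEH library, with the next at 38.1 FPKM. The remaining one was Pik3cb in the DEX library of leukemia 1, at 2.24 FPKM, with the next at 0.92 FPKM. That library also held the highest granulocyte (5482 FPKM) and monocyte and macrophage (294 FPKM) sums of the DEX libraries. Its VEH partner held the highest of the VEH libraries (9081 and 529 FPKM) and the highest Pik3cb in VEH, at 2.78 FPKM. The part of other cells in this flag was not tested. What sets leukemia 6 apart was not tested.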

How the results depend on the processing

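No fit turned the direction of Pik3r1, Pik3r5, Pik3cd, Inpp5d, Pik3ca or Inpp4b in the 19 alternatives, but calls were lost. With no replicate block, Pik3r1 (1.07, adjusted p = 0.266), Pik3r5 (0.77, adjusted p = 0.12), Pik3cd (-0.45, adjusted p = 0.211) and Inpp5d (0.30, adjusted p = 0.681) did not pass, and 35 genes were higher and 46 lower. With no filter, 181 were higher and 370 lower, and Pik3r1 (1.07, adjusted p = 0.0583), Pik3r5 (0.77, adjusted p = 0.118) and Inpp5d (0.30, adjusted p = 0.129) did not pass over the 27663 genes. Rescaling to TPM moved the median of all tested genes to -0.16 and gave 268 higher and 1844 lower, with Pik3r5 at 0.62, Inpp5d at 0.16, Pik3cg at -0.13 (the opposite sign) and F for Pik3cd at 2.29 (adjusted p = 0.176). Leukemias 2, 5 and 6 alone gave 188 higher and 257 lower, with Pik3r1 at 0.76, Pik3r5 at 0.45, Pik3cd at -0.41, Inpp5d at 0.18 and Pik3r2 at 0.17 (the opposite sign), none of them past the threshold (adjusted p = 0.106 to 0.433). Leukemias 1, 3 and 4 alone gave 523 lower. The granulocyte term gave 705 lower and Inpp5d at 0.35. Inpp5d also missed with a pseudocount of 0.1 (0.31, adjusted p = 0.0511) and no variance trend (0.30, adjusted p = 0.0655). Leaving out each leukemia in turn gave 233 to 532 higher genes and 425 to 1042 lower, Pik3r5 at 0.60 to 0.92, Inpp5d at 0.26 to 0.37, Inpp4b at -0.39 to -0.22, Pik3cg at -0.017 to 0.030 (-0.0091 without leukemia 1 and -0.017 without leukemia 5), and F at 4.57 to 11.8 for Pik3r1, 0.616 to 6.97 for Pik3cd and 0.492 to 9.68 for Pik3cg. Pathway list counts moved by over 1.5 times in 84 of 266 list and setting combinations. The cause of these changes was not tested. Fits on part of the leukemias hold fewer replicates and the fit with no filter holds more genes, while the other alternatives kept all 12 libraries. All p are from limma.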
